A study of Mus musculus with 8 samples.

Results

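Interferon-stimulated genes are the genes that a cell switches on after interferon has bound its receptor. A list of 50 genes under that name, which also holds the receptor chains, was followed in brain endothelial cells (ECs) that express an activated MAP2K1. Members were the listed receptor chains, transcription factors and effectors found in the deposited normalized counts. That table holds 48 of the 50 among 16889 genes, and all 48 were tested. *Oas3* (0 to 11 raw counts in any library) and *Mx1* (0 to 31) were not in it and were not tested. Mutant ECs carried *Map2k1* K57N and came from R26GT-Map2k1-GFP/+ pups that were also Tg-Cdh5CreER+/-, in which a CAG-driven *Map2k1* K57N cDNA at the Rosa locus is freed by a Cre recombinase under the endothelial *Cdh5* promoter. Control ECs came from wild-type pups, matched by litter to the mutants, which the study elsewhere describes as carrying the Cre transgene alone. Litters received tamoxifen on postnatal day 1, brains were taken on postnatal day 9, and ECs were bound to beads against CD31. Each group held 4 pups with 1 library each. Only a minority of mutant ECs had recombined, so each mutant value is an average over recombined and unrecombined cells.

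Between 24833373 and 34196955 counts fell on genes in the mutant libraries and between 28146348 and 32208421 in the wild-type libraries. *Map2k1*, the targeted gene, had 12660 to 18690 normalized counts in mutant and 1502 to 1758 in wild-type ECs, so every library matched its label. Normalized counts here are counts scaled by the TMM method to the mean library size. The 11 endothelial markers summed to 373613 to 452108 normalized counts in mutant and 351278 to 424563 in wild-type ECs (log2 ratio 0.02, exact permutation p = 0.886, adjusted p = 0.943 over 10 marker lists), so the labelled cell type was present in every library. Of the 11, 3 were higher and 3 lower by edgeR at adjusted p under 0.05. In that test 21.5% of all genes were higher and 22.9% lower, shares to set beside each marker count here. Markers of oligodendrocytes and of red blood cells were lower in mutant libraries, with 6 of 6 and 7 of 7 markers passing the test. Their sums ran from 816 to 1776 against 2712 to 8026, and from 2650 to 8520 against 15868 to 27517. For each of these sums the exact permutation test gave p = 0.0286, the smallest that 4 against 4 allows, and adjusted p = 0.0714. *Ms4a1*, a gene of B cells, was lower as well (log2 fold change −2.44, adjusted p = 0.00101, edgeR), and *Cd3e*, *Cd3d*, *Cd8a* and *Ncr1* had too few counts to test. The astrocyte sum was 18426 to 22102 against 10876 to 12909 (the same exact p and adjusted p), and its rise was that of *Gja1* (log2 fold change 0.80, adjusted p = 0.000132, edgeR). *Aldh1l1* was lower (−0.96, adjusted p = 0.0146, edgeR). *Aqp4*, *Slc1a3*, *Slc1a2* and *Gfap* had values of −0.87, −0.60, −0.40 and 0.24 that did not pass. The log2 ratios of neutrophil (−0.54), pericyte and smooth muscle (−0.15), fibroblast (0.34) and neuron (−0.60) sums had adjusted p from 0.171 to 0.821 by the same exact test, though single markers passed. Of these, 3 of 6 neuron markers were lower (*Gad1* by a log2 fold change of −2.46, adjusted p = 3.76e-05, edgeR) and none was higher. *Rbfox3* alone among the neuron markers tested had a positive value, which did not pass (log2 fold change 1.185, adjusted p = 0.0514, edgeR). Of the pericyte and smooth muscle markers, 3 of 10 were higher (*Abcc9* by 1.78, adjusted p = 0.000236, edgeR) and none was lower. *Rgs5* (−0.44), *Acta2* (−0.40), *Myh11* (−0.39) and *Cnn1* (−0.63) had negative values that did not pass, and the others were positive. For fibroblasts 2 of 4 markers were higher, and for neutrophils 1 of 6 was lower. The part of these cells in the results below was not tested. In bulk RNA, fewer cells of a type and less RNA per cell cannot be told apart.

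Type I interferons bind IFNAR1 and IFNAR2, and type II interferon binds IFNGR1 and IFNGR2. The kinases JAK1, TYK2 and JAK2 then phosphorylate STAT proteins. A complex that holds STAT2 and IRF9 binds the interferon-stimulated response element (ISRE), while pairs of STAT proteins bind the gamma-activated sequence (GAS). Among the genes they switch on are sensors of foreign nucleic acid, antiviral effectors and GTPases that attack intracellular pathogens, and in brain endothelium this pathway is known for acting on the tightness of the vessel wall.

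Sequences upstream of the start sites are shown for 5 genes, to show how the elements sit beside members that did and did not change. Capitals mark matches to an ISRE core (GAAA, any 2 bases, then GAAA again) and to a GAS core (TTCNNNGAA), searched on both strands. Each line gives the 250 bases before the RefSeq start, 5′ to 3′ on the gene's strand, in build GRCm38.p6.
Igtp, chr11:58199306-58199555 (+): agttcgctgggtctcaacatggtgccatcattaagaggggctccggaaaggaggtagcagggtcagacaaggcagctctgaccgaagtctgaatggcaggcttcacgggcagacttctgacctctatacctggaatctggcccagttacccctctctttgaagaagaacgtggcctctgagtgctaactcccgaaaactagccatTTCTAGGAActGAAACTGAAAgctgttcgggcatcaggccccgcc
Stat2, chr10:128270248-128270497 (+): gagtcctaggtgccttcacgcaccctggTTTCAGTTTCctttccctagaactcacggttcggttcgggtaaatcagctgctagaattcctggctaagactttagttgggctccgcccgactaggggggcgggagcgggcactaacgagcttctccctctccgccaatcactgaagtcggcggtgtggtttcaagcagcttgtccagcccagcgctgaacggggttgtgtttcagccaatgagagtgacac
Isg15, chr4:156200819-156201068 (-): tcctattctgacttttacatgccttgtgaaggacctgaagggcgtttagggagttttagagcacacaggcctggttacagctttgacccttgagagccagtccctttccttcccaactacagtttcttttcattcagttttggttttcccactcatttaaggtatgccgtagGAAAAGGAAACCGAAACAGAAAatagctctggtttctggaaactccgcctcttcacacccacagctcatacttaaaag
Irf1, chr11:53769764-53770013 (+): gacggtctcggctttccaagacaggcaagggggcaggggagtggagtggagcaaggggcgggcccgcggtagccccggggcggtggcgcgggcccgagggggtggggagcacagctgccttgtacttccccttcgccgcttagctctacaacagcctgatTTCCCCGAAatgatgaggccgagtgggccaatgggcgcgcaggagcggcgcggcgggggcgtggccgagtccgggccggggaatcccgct
Irf8, chr8:120736108-120736357 (+): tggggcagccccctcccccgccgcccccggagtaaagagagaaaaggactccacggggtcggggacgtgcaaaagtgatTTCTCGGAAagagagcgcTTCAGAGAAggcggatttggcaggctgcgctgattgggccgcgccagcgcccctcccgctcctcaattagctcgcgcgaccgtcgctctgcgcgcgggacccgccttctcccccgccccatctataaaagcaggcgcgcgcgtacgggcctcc

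*Igtp*, one of the members that fell most, holds an ISRE and a GAS match close to its start. *Stat2*, which fell, holds an ISRE match far from the RefSeq start, which lies outside the annotated transcripts. *Isg15*, which did not pass the test, holds 3 overlapping ISRE matches. *Irf1*, which fell, and *Irf8*, which rose, hold GAS matches (1 and 2). Over windows from 250 bases before to 50 after the start, 40 of the 50 listed genes had a RefSeq entry. An ISRE match was found in 19 of those 40 (47.5%) and in 3.99% of 27025 genes with a window. A GAS match was found in 14 of 40 (35.0%), against 9.55% of those genes. Of the members that fell, 6 of 19 had an ISRE match, and of the members tested that did not pass, 11 of 17 had one. For GAS the counts were 7 of 19 and 6 of 17. *Bst2* and *Ifitm3* each had 1 GAS match that overlapped an ISRE match. These are matches of letters and not sites of binding.

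Mutant ECs had lower levels of many interferon-stimulated genes and a higher level of *Irf8*. Of the 48 members, 26 passed the test, which is an adjusted p below 0.05 in the quasi-likelihood test of edgeR with p adjusted by Benjamini-Hochberg across 16887 genes, and 44.4% of all genes did. The 26 comprised 23 members that were lower, where 22.9% of all genes tested were lower. The other 3, *Irf8*, *Ifngr2* and *Ifitm2*, were higher, where 21.5% of all genes were higher. The remaining 22 did not pass. When the log2 fold change had also to pass 1 in size, 1 member was higher (*Irf8*, background 5.90%) and 2 were lower (*Igtp* and *Mx2*, background 8.05%). The median log2 fold change of the 48 members was −0.32, beside −0.03 over all genes, and 81.2% of members against 51.8% of all genes had a negative value. The 4 mutant values lay wholly below the 4 wild-type values for 19 members (21.9% of all genes) and wholly above for 3 (20.6%). One of the 19, *Ifi27*, a small membrane protein strongly induced by type I interferon, did not pass the test (log2 fold change −0.20, adjusted p = 0.140).

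**Figure D1:**
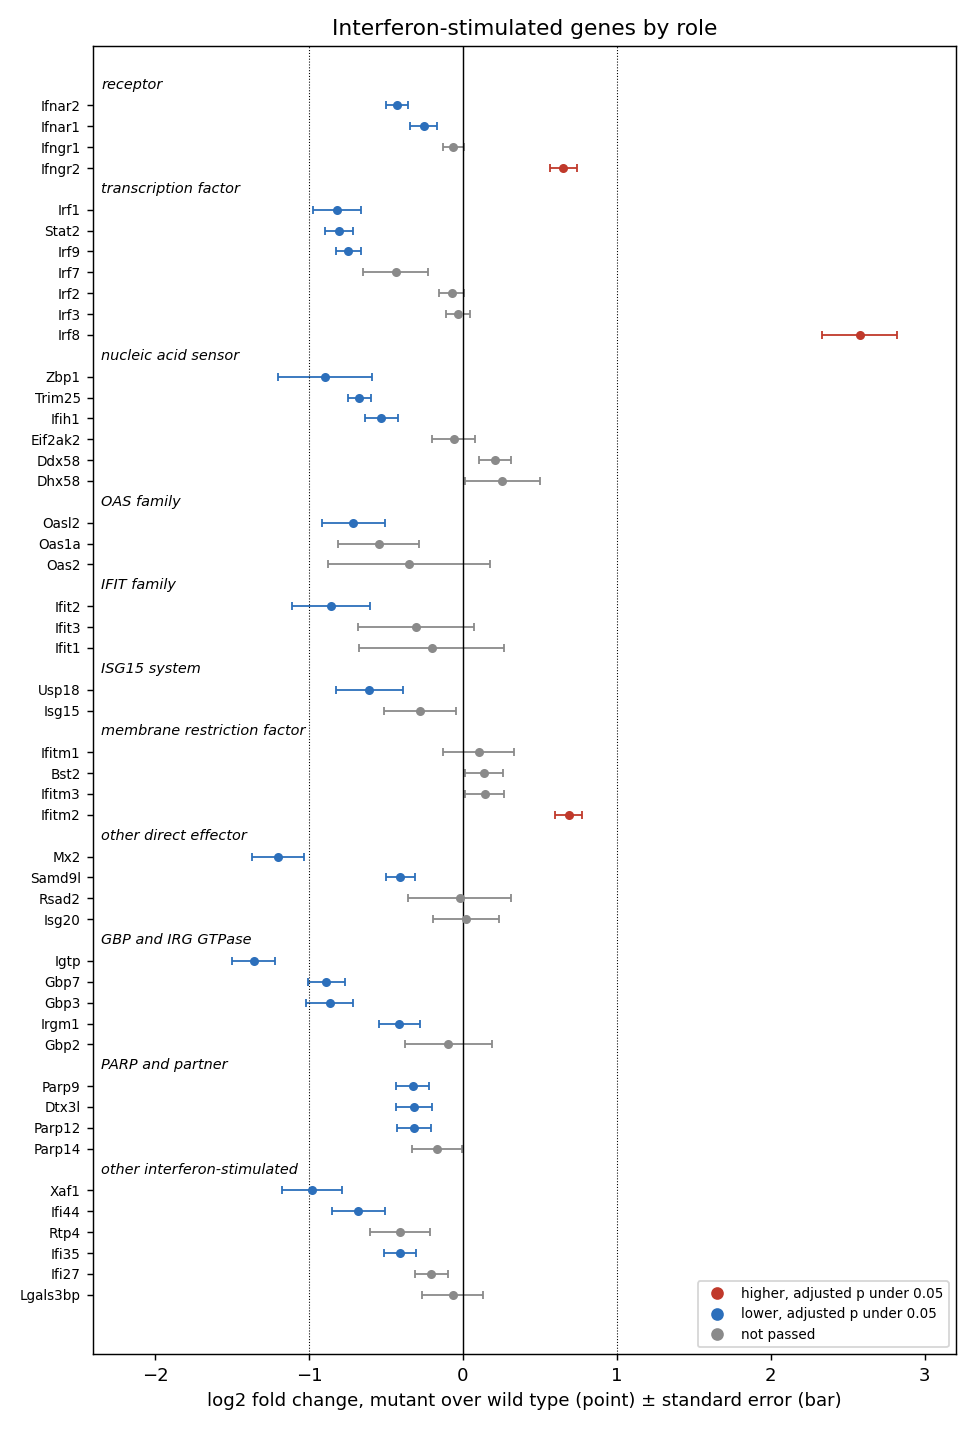
Log2 fold change of mutant over wild-type ECs for the 48 members tested, grouped by role; points are edgeR estimates, bars are standard errors, and dotted lines mark a log2 fold change of −1 and 1. The 23 members that were lower sit in 10 of the 11 roles, and the 3 that were higher are *Irf8* (2.58), *Ifitm2* (0.69) and *Ifngr2* (0.65).

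Of the 4 receptor chains, both type I chains were lower and the type II chains went apart. *Ifnar2*, the chain that binds type I interferon most tightly, had 2584, 2481, 2601 and 2283 normalized counts in mutant libraries 1 to 4 and 3589, 3348, 3058 and 3409 in wild-type libraries 1 to 4. Every mutant value was below every wild-type value, a 1.35-fold difference (log2 fold change −0.43, SE 0.07, adjusted p = 0.000838). *Ifnar1*, its partner, had 9163, 9596, 7997 and 8881 against 11100, 10224, 9440 and 11751, and the groups overlapped (log2 fold change −0.26, SE 0.09, adjusted p = 0.0383). *Ifngr2*, the signalling chain of the type II receptor, had 2545, 2438, 2027 and 2650 in mutant and 1464, 1611, 1468 and 1607 in wild-type ECs. The lowest mutant value exceeded the highest wild-type one (1.57-fold, log2 fold change 0.65, SE 0.09, adjusted p = 0.000252). *Ifngr1*, the ligand-binding chain, had 1526, 1614, 1462 and 1350 against 1538, 1512, 1544 and 1619 and did not pass (log2 fold change −0.06, SE 0.07, adjusted p = 0.499). *Ifnar1*, *Ifnar2* and *Ifngr2* lie near each other on chromosome 16 of GRCm38 (91485238 to 91507441, 91372783 to 91405589 and 91547072 to 91565169). *Ifnar2* shared 7.89% of its 50-base words with the overlapping model *Gm21970*.

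The 7 transcription factors gave 3 lower, 1 higher and 3 that did not pass. *Stat2*, the STAT of the type I complex, had 1262, 1523, 1437 and 1415 normalized counts in mutant and 2550, 2212, 2309 and 2782 in wild-type ECs. This was 1.75-fold lower, without overlap (log2 fold change −0.81, SE 0.09, adjusted p = 7.88e-05). *Irf9*, its DNA-binding partner, had 1325, 1413, 1321 and 1106 against 2273, 2154, 2005 and 2207 (1.67-fold lower, log2 fold change −0.74, SE 0.08, adjusted p = 8.79e-05). *Irf1*, a factor induced by interferon, had 3078, 4114, 3507 and 3092 against 7084, 7419, 4697 and 5116. Its wild-type libraries 1 and 2 stood above libraries 3 and 4, and all of them above the mutant values (1.76-fold lower, log2 fold change −0.82, SE 0.16, adjusted p = 0.00196). *Irf2*, *Irf3* and *Irf7* did not pass. *Irf7*, the amplifier of the type I response, ran from 273 to 520 in mutant and from 401 to 587 in wild-type ECs (log2 fold change −0.44, SE 0.21, adjusted p = 0.118). *Irf7* was lower in a fit that kept the prefix opening each sample description as a block (adjusted p = 0.0298, edgeR) and without mutant library 4 (−0.64, adjusted p = 0.0152, edgeR). Mutant library 4 held the 520, the highest mutant value of *Irf7*, and leaving it out lowers the estimate by construction.

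*Irf8* moved by the most of all members, and upward. This factor is best known for directing the formation of macrophages, microglia and dendritic cells, and lies on chromosome 8 from 120736358 to 120756694. It had 4225, 2608, 2693 and 3911 normalized counts in mutant and 398, 450, 835 and 566 in wild-type ECs, or 3359 ± 829 and 562 ± 195 (SD, n = 4 each). The lowest mutant value was over the highest wild-type value, and the difference was 5.97-fold (log2 fold change 2.58, SE 0.25, adjusted p = 3.22e-05). Because *Irf8* marks microglia in the brain, 17 microglia and macrophage markers were read beside it. Their sum was 5997, 7508, 22642 and 17846 in mutant and 7468, 9981, 24957 and 6940 in wild-type libraries. Of the 17, 0 passed the edgeR test, where 44.4% of all genes did. The sums overlapped (log2 ratio 0.13, exact permutation p = 0.943, adjusted p = 0.943). Mutant library 1 had the lowest marker sum of all 8 libraries and the highest *Irf8*, and wild-type library 3 had the highest marker sum and the highest *Irf8* of its group. Without mutant libraries 3 and 4 and wild-type library 3, which had the highest sums, the log2 fold change of *Irf8* was 2.88 (adjusted p = 4.33e-05, edgeR), and 24 members were lower. Those libraries were chosen after the marker levels were seen. Which cells held the *Irf8* RNA was not tested.

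**Figure D2:**
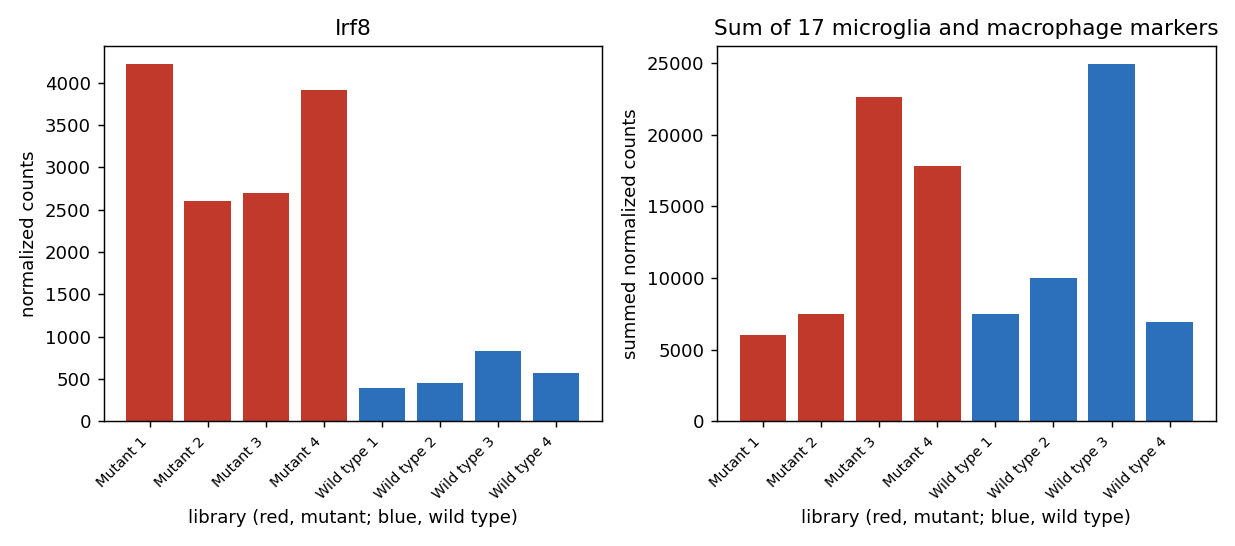
Left, normalized counts of *Irf8* in each library; right, the summed normalized counts of 17 microglia and macrophage markers in the same libraries (red, mutant; blue, wild type; one bar per library). *Irf8* separated the groups (2608 to 4225 against 398 to 835), while the marker sums overlapped (5997 to 22642 against 6940 to 24957).

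Of the 6 members grouped as sensors of foreign nucleic acid or regulators of them, 3 were lower and none was higher. *Trim25*, a ubiquitin ligase that activates the RNA sensor RIG-I, had 5630, 6190, 5562 and 5163 normalized counts against 8986, 8698, 8715 and 9529 in wild-type ECs. The groups stood well apart (1.59-fold lower, log2 fold change −0.67, SE 0.07, adjusted p = 7.34e-05). *Ifih1*, which encodes the sensor MDA5, ran from 553 to 766 in mutant and from 852 to 999 in wild-type ECs (log2 fold change −0.53, SE 0.11, adjusted p = 0.00313). *Zbp1*, a sensor of left-handed nucleic acid, was scarce at 21.5, 11.03, 28.7 and 28.7 against 44.1, 50.6, 36.2 and 37.9 (1.86-fold lower, log2 fold change −0.90, SE 0.31, adjusted p = 0.0348). *Ddx58*, the RIG-I gene itself, had a log2 fold change of 0.21 (SE 0.11, adjusted p = 0.135), and *Ddx58* was higher with the label prefix as a block (adjusted p = 0.0386, edgeR). *Dhx58* (0.26) and *Eif2ak2* (−0.06), a regulator of the RNA sensors and the kinase PKR, did not pass.

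In the OAS, IFIT and ISG15 groups, which hold the best known markers of a type I response, 3 of 8 tested members were lower and none was higher. In the OAS family, whose products activate an RNA-degrading enzyme, 1 of 3 tested members was lower. This was *Oasl2*, with 249, 306, 327 and 441 normalized counts against 638, 478, 393 and 665 (log2 fold change −0.71, SE 0.20, adjusted p = 0.0166), and the groups overlapped. In the IFIT family, which binds viral RNA, *Ifit2* was lower at 49.3, 75.0, 114 and 91.2 against 180, 124, 122 and 173 (1.81-fold, log2 fold change −0.86, SE 0.25, adjusted p = 0.0187). *Ifit1*, *Ifit3*, *Oas1a* and *Oas2* had negative fold changes that did not pass (adjusted p from 0.115 to 0.753). *Isg15*, a ubiquitin-like modifier, ran from 173 to 359 in mutant and from 234 to 339 in wild-type ECs (log2 fold change −0.28, SE 0.24, adjusted p = 0.365). Without mutant library 4, at 359 the highest of its group, *Isg15* was lower (−0.55, adjusted p = 0.0295, edgeR). Leaving out the highest mutant value lowers the estimate by construction. *Usp18*, which removes ISG15 and damps the type I receptor, was lower (log2 fold change −0.61, SE 0.22, adjusted p = 0.0425). *Oas1a* shared 57.6% of its 50-base words with its paralogs and *Ifit3* shared 51.2%, so their reads may be split between copies.

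Of the 4 membrane restriction factors, 1 was higher and none was lower. *Ifitm2*, which blocks the entry of enveloped viruses, was higher, with 2558, 2473, 2442 and 2705 normalized counts against 1817, 1625, 1357 and 1520 (1.61-fold, log2 fold change 0.69, SE 0.09, adjusted p = 0.000194). The groups did not overlap. It shared 48.5% of its 50-base words with other annotated genes, among them the overlapping model *Gm45717*, so its count is uncertain. *Ifitm1* (0.10), *Ifitm3* (0.14) and *Bst2* (0.14), the last a tether of budding virus, did not pass.

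Of the other direct effectors, 2 of 4 were lower. *Mx2*, a dynamin-like GTPase of the antiviral Mx family (chromosome 16, 97535308 to 97560900), had 148, 197, 203 and 216 normalized counts in mutant and 518, 357, 374 and 515 in wild-type ECs. The groups were apart by 2.30-fold (log2 fold change −1.20, SE 0.17, adjusted p = 0.000303). *Samd9l*, a restriction factor of poxviruses, was lower as well (log2 fold change −0.41, SE 0.09, adjusted p = 0.00506). *Rsad2*, the viperin gene, and *Isg20*, an exonuclease, had log2 fold changes of −0.02 and 0.02.

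The GBP and IRG GTPases, which coat and break pathogen-holding vacuoles and are induced strongly by type II interferon, had 4 of 5 members lower. *Igtp* (chromosome 11, 58199556 to 58207591) fell the most of all members, with 192, 226, 265 and 283 normalized counts in mutant and 682, 550, 565 and 691 in wild-type ECs, or 242 ± 40.8 and 622 ± 74.7 (SD, n = 4 each). It was 2.57-fold lower (log2 fold change −1.36, SE 0.14, adjusted p = 5.09e-05). *Gbp7* had 621, 782, 680 and 771 against 1385, 1251, 1091 and 1560 (1.85-fold lower, log2 fold change −0.89, SE 0.12, adjusted p = 0.000239). *Gbp3* had 961, 1245, 1192 and 1431 against 2455, 1959, 1719 and 2666 (1.82-fold lower, log2 fold change −0.86, SE 0.15, adjusted p = 0.00121). *Irgm1* was lower with overlap (log2 fold change −0.41, SE 0.13, adjusted p = 0.0268). *Gbp2* did not pass (log2 fold change −0.10, SE 0.28, adjusted p = 0.808). *Igtp* shared 11.8% of its 50-base words with *Irgm2*, whose exons overlap 8.01% of its exon bases on the same strand. *Gbp7* shared 12.7% with the model *Gm43802*, which overlaps 11.35% of its exon bases on the same strand, and with *Gbp3* and *Gbp11*.

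**Figure D3:**
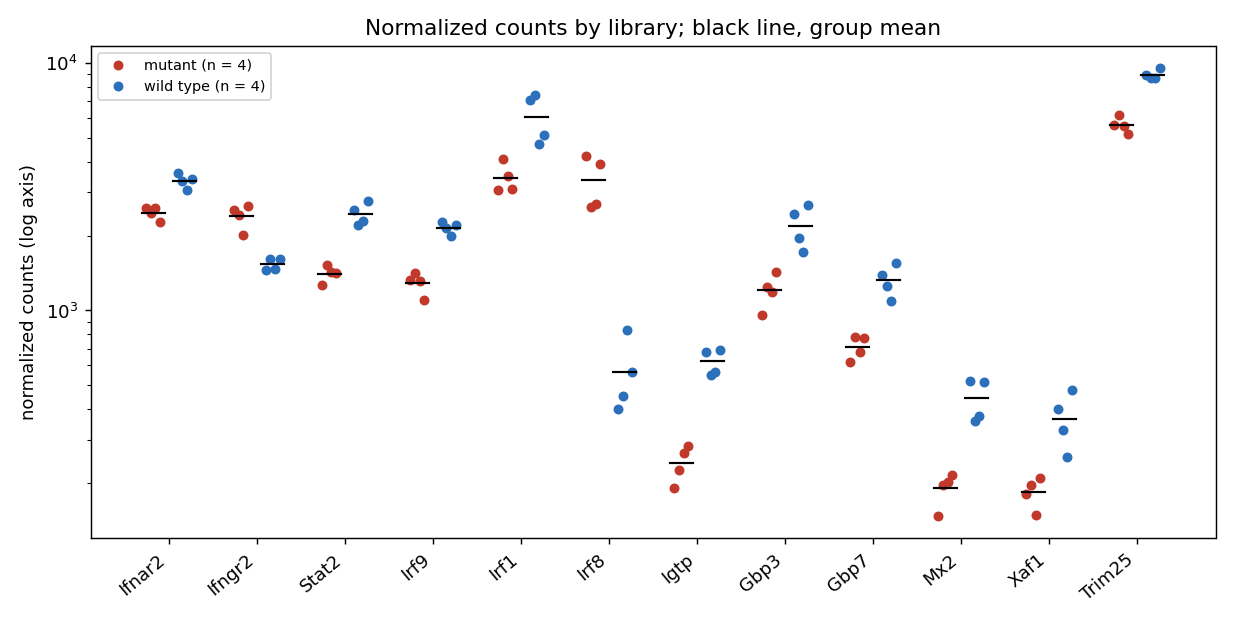
Normalized counts (log axis) in each library for 12 members that passed the test; each dot is one library (red, mutant, n = 4; blue, wild type, n = 4) and black lines are group means. Mutant dots lie below wild-type dots for *Ifnar2*, *Stat2*, *Irf9*, *Irf1*, *Igtp*, *Gbp3*, *Gbp7*, *Mx2*, *Xaf1* and *Trim25* and above them for *Ifngr2* and *Irf8*.

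The PARP enzymes and their partner moved less. *Parp9*, *Parp12* and *Dtx3l*, of which *Dtx3l* encodes the ubiquitin ligase that works with PARP9, were each lower by a log2 fold change between −0.33 and −0.32 (adjusted p from 0.0319 to 0.0475), and *Parp14* did not pass (−0.17, adjusted p = 0.428). *Parp9* and *Dtx3l* overlap on opposite strands. Of the 6 other members, 3 were lower. *Xaf1*, a factor that favours cell death, had 182, 196, 149 and 210 normalized counts against 399, 328, 254 and 479 (1.98-fold lower, log2 fold change −0.98, SE 0.19, adjusted p = 0.00233). *Ifi44* had 184, 171, 168 and 202 against 330, 266, 210 and 360 (log2 fold change −0.68, SE 0.17, adjusted p = 0.00874). *Ifi35* was lower by less (log2 fold change −0.41, SE 0.11, adjusted p = 0.0103), and *Rtp4*, *Lgals3bp* and *Ifi27* did not pass. *Rtp4* was lower with the label prefix as a block (−0.40, adjusted p = 0.0331, edgeR).

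By library, every mutant pup had a lower member median than every wild-type pup, though mutant library 4 (−0.203) and wild-type library 3 (−0.184) were close. Relative to the wild-type mean, the median over the 48 members was −0.51, −0.51, −0.40 and −0.20 (log2) in mutant libraries 1 to 4 and 0.09, −0.12, −0.18 and 0.17 in wild-type libraries 1 to 4. Counts of members below the wild-type mean did not separate the groups. They were 39, 40, 38 and 29 of 48 in mutant libraries 1 to 4 and 12, 38, 44 and 7 in wild-type libraries 1 to 4. The sample descriptions begin with one of 3 prefixes, each holding mutant and wild-type libraries. Mutant and control pups were matched within litters, and the labels do not say whether a prefix marks a litter. Over all 48 members the median log2 ratio of mutant to wild type was −0.45, −0.20 and −0.30 in the 3 prefixes, beside −0.04, 0.00 and −0.01 over all genes tested. Negative ratios were found for 40, 37 and 33 of the 48 members. The 26 members past the test kept their direction in each prefix, which their choice from the same libraries largely fixes. With the prefix as a block, 25 members were lower and 4 higher. Shares over all genes are given for the main fit only, so counts under other fits have no background beside them. The calls of *Ifnar1*, *Zbp1*, *Oasl2*, *Ifit2*, *Usp18*, *Irgm1*, *Parp9*, *Parp12* and *Dtx3l* were each lost without at least 1 of the libraries (adjusted p from 0.0515 to 0.121, edgeR), and 14 members were lower without wild-type library 1.

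**Figure D4:**
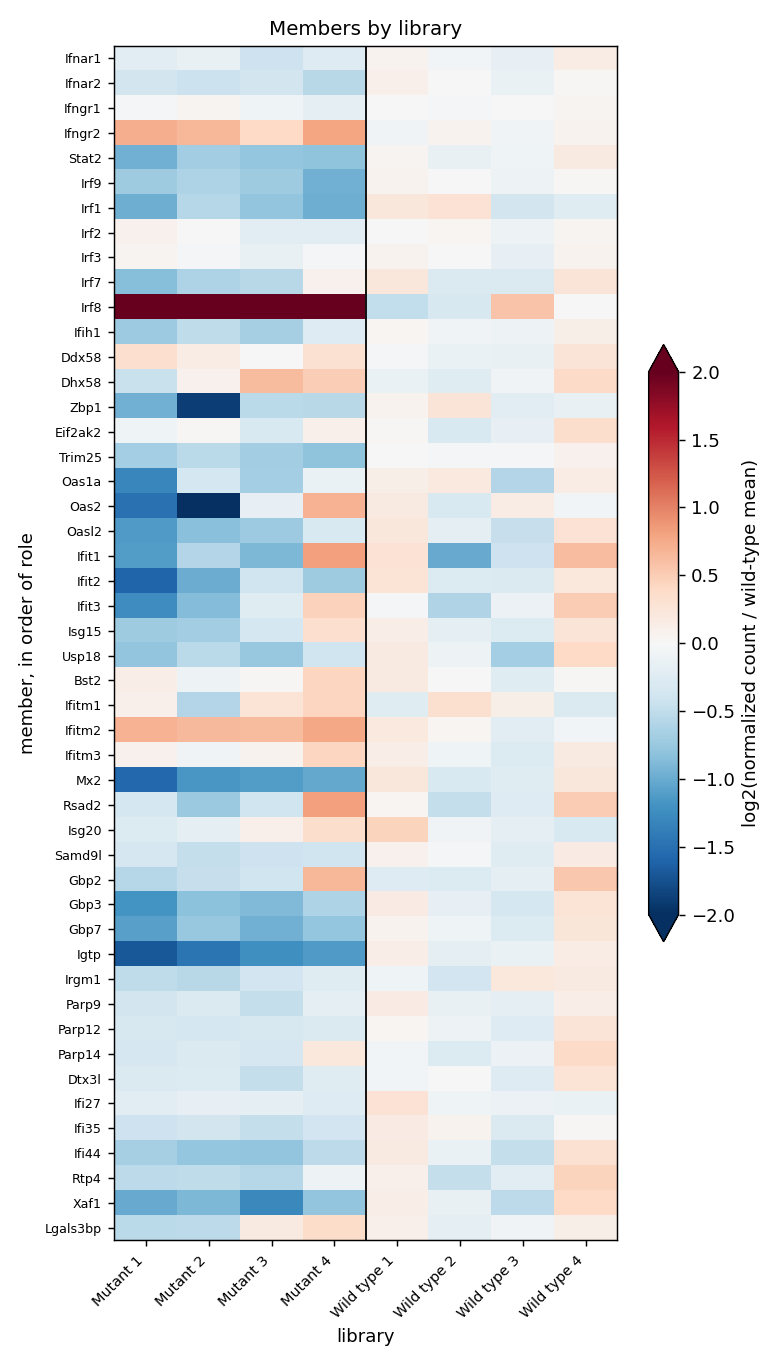
Log2 of normalized count over the wild-type mean for each of the 48 members (rows, by role) in each library (columns; the black line divides mutant from wild type; colours saturate at −2 and 2). Mutant columns are mostly blue, with member medians from −0.51 to −0.20 (wild-type columns −0.18 to 0.17), and *Irf8* stands out in red.

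Levels per length spanned a wide range. In RPKM (reads scaled to gene length and library size), *Ifitm3* led wild-type ECs at 196 ± 28.2 (SD, n = 4), followed by *Ifitm2* at 81.5 ± 9.94 and *Ifnar1* at 61.1 ± 5.80. *Trim25* (52.7), *Bst2* (52.6) and *Irf1* (51.6) followed and did not differ beyond their spread. *Oas2* was last at 0.142. *Irf8* stood at rank 36 of 48 in wild-type ECs, at 2.69 ± 0.933, and at rank 10 in mutant ECs, at 16.1 ± 3.97. *Stat2* went from rank 9 to 16, *Irf9* from 14 to 21 and *Igtp* from 20 to 30.

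A further 85 genes of the interferon pathway were read beside the members. None of the 7 interferon genes had enough counts to test. *Ifnb1*, the interferon beta gene, had 1, 3, 11 and 13 raw counts in mutant and 2, 0, 4 and 0 in wild-type libraries, and *Ifng*, the type II interferon, had 1 count over all libraries. Of the 74 tested, 31 were lower and 6 higher (background 22.9% and 21.5%), with a median log2 fold change of −0.30. Of the receptor kinases, *Tyk2* was lower (log2 fold change −0.30, adjusted p = 0.0340) and *Jak2* did not pass, while *Jak1* was higher at 9541 to 12231 against 4970 to 5560 normalized counts (log2 fold change 0.96, SE 0.09, adjusted p = 2.93e-05).

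Of the 7 negative regulators, 3 were lower and 1 was higher. *Socs1*, which shuts off JAK kinases, had 126, 116, 127 and 63 normalized counts against 275, 260, 256 and 230 (log2 fold change −1.25, SE 0.21, adjusted p = 0.000888). Of the 9 adaptors and kinases of nucleic acid sensing, 3 were higher and 1 lower. *Irf4*, a factor of lymphocytes, was lower (log2 fold change −1.55, adjusted p = 0.00403). Of 51 further interferon-stimulated genes, 23 were lower and 1 was higher, the latter by a log2 fold change over 1. Log2 fold changes of the 51 ran from −1.32 to 1.69. The largest falls among those with at least 50 normalized counts were in *Irgm2*, a GTPase related to *Irgm1* (log2 fold change −1.32, adjusted p = 0.00039), *Trim21*, a cytosolic antibody receptor (−1.20, adjusted p = 5.77e-05), *Oas1b* (−1.20, adjusted p = 0.00346), *Trim34a* (−1.10, adjusted p = 0.000165) and *Phf11d* (−1.02, adjusted p = 0.0385). Exons of *Irgm2* overlap those of *Igtp*, so their counts may not be fully separate.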

How the data were processed

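RNA of CD31-selected brain ECs from 8 pups was sequenced as poly(A) libraries in paired reads. After trimming in Trimmomatic and alignment by STAR to build GRCm38, the authors deposited unnormalized read counts for 49315 genes. The counting program, annotation release and use of strand are not given in the sources used here, so overlapping genes are uncertain. For 16889 genes a signal was deposited too, in which DESeq2 size factors had divided the counts. Multiplied back, 100% of its values were whole within 0.001 reads. That table fixed which members were kept, and tests used the counts.

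The main test was edgeR 4.0.16 in R 4.3.3 (filterByExpr at a minimum count of 10, TMM, glmQLFit and glmQLFTest, no covariate). SE is the absolute log2 fold change over the square root of F. P-values were adjusted by Benjamini-Hochberg over 16887 genes. Marker sums were compared by two-sided exact permutation. DESeq2 1.42.0, other scalings, no filter, the genes of the deposited normalized table, a replicate block, a label prefix block and each library left out were tried as alternatives. The analysis was tested on simulated data. It missed the share of changed genes first set as its bar, mainly at the smaller of the 2 fold changes simulated, and the bar was replaced after this was seen by limits on false calls, direction, bias and recovery of the larger fold change, so members with small changes may have been missed. Every library held at least 24833373 counts on genes, and members with few counts are given with their values. Libraries of a group differed by more than sampling noise and were kept apart.

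All members are given by count, and values in every library are given for the 15 members with the largest change past adjusted p 0.05, for those also past a log2 fold change of 1, for *Stat2*, *Irf9* and the receptor chains. Other genes were *Jak1*, *Tyk2* and the 8 with the largest change and a mean of 50 or more normalized counts in either group, and some genes that this rule named are not reported here. *Ifnb1*, *Ifng*, the single cell type markers and the members given by range were chosen after their values were seen. Members and lists were chosen with earlier results of these data known. Word sharing used 50-base words of annotated exons. Promoter windows are from RefSeq. Members without a window were *Usp18*, *Parp14*, *Ifi27*, *Zbp1*, *Oas2*, *Mx2*, *Mx1*, *Rtp4*, *Parp9* and *Dhx58*.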

Additional observations from a re-analysis of the deposited data

Results flagged for a closer look

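In each group of 4 libraries, the highest and lowest value of each member was compared with the nearest other value by Dixon's gap test. Of 96 sets of 4, 8 passed the 95% limit, where chance gives about 1 in 20, and the members are not independent. Of the 8, 5 were high values in mutant library 4, with *Ifit1* at 118.1 normalized counts (others 30.31 to 44.12), *Rsad2* at 454.1 (153.3 to 200.8), *Gbp2* at 1610 (687.1 to 771.5), *Parp14* at 1743 (1186 to 1234) and *Rtp4* at 349 (254.2 to 265.8). In wild-type libraries, *Gbp2* was high at 1476 in library 4 (841.9 to 904.7), *Ifi27* was high at 915.1 in library 1 (681.6 to 704.1) and *Oas1a* was low at 89.69 in library 3 (147 to 154.7). None of these 7 genes passed the test between groups.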

How the results depend on the processing

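Of the 26 members past the threshold, 17 kept their call under all 16 alternatives and none changed direction. The other 9 (*Ifnar1*, *Zbp1*, *Oasl2*, *Ifit2*, *Usp18*, *Irgm1*, *Parp9*, *Parp12* and *Dtx3l*) lost it under at least 1. *Oasl2* and *Ifit2* lost it without wild-type library 1 (adjusted p 0.0569 and 0.0635). *Zbp1* lost it without mutant 1 or 2 or wild type 1 or 2 (0.0617 to 0.0924), *Irgm1* without mutant 1 or 2 or wild type 1, 3 or 4 (0.0523 to 0.0831), *Parp9* without mutant 1, 2 or 3 or wild type 1 or 4 (0.0577 to 0.113), *Parp12* without any 1 mutant library or wild type 1 or 4 (0.0654 to 0.0989), *Usp18* and *Dtx3l* without any 1 library other than wild type 3 (0.0515 to 0.118 and 0.0702 to 0.121), and *Ifnar1* without any 1 library other than mutant 2 or wild type 3 (0.0582 to 0.113). Calls were also lost for *Ifnar1* (0.0586) and *Dtx3l* (0.0605) with DESeq2 size factors, for *Ifnar1* (0.0702), *Parp12* (0.0515) and *Dtx3l* (0.0658) without a filter, for *Dtx3l* with the DESeq2 test (0.0501) and for *Zbp1* with the replicate block (0.0557). Of the 22 members short of the threshold, 7 passed it under at least 1 alternative. These were *Irf7*, *Ddx58* and *Rtp4* under both blocks (adjusted p 0.0298 to 0.0418) and without mutant 4, wild type 4 and wild type 2 (0.0152, 0.0249 and 0.0399), *Oas1a* without wild type 3 (0.0452), *Isg15* without mutant 4 (0.0295), and *Oas2* (0.0217) and *Lgals3bp* (0.0102) in the alternative chosen later, described next, where *Irf7* (0.0118), *Oas1a* (0.0349) and *Isg15* (0.00912) passed too. The count of lower members was 23, and 20 to 25 under other tools, scalings, filters and blocks. With each library left out in turn it ran from 14 to 23, with 14 without wild-type library 1. Members lower by both limits ran from 2 to 4 (4 without mutant library 3 and without mutant library 4), members higher from 3 to 4, other pathway genes higher from 4 to 7, and the members' median from −0.453 to −0.239. The count of other pathway genes higher rose from 6 to 10 with the label prefix as a block. Same-numbered mutant and wild-type libraries deviated together with correlations of 0.201, 0.21, 0.29 and 0.024, and no library correlated best with its own number, so the numbers were not shown to pair the samples. The replicate block gave 24 lower and 4 higher members and 9 other pathway genes higher. For the alternatives the share of all genes called is not given, so their counts have no background beside them.

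An alternative chosen after the marker levels were seen left out mutant libraries 3 and 4 and wild-type library 3, which held the most microglia and macrophage marker counts. It gave 24 lower members, 8 by both limits, and a median of −0.537. Among members short of the threshold, *Isg20* changed sign with upper quartile scaling (log2 fold change −0.036), and others changed sign when 1 library or those 3 were left out. Over these settings the log2 fold changes were *Ifngr1* −0.103 to 0.037, *Irf2* −0.105 to 0.042, *Irf3* −0.077 to 0.016, *Dhx58* −0.146 to 0.454, *Bst2* −0.024 to 0.220, *Ifitm3* −0.043 to 0.209, *Eif2ak2* −0.150 to 0.079, *Ifit1* −0.918 to 0.071, *Ifitm1* −0.144 to 0.276, *Rsad2* −0.584 to 0.195, *Isg20* −0.269 to 0.224, *Gbp2* −0.544 to 0.133 and *Lgals3bp* −0.531 to 0.087. The log2 ratio of the microglia and macrophage sum ranged from −0.239 to 0.732 and of the endothelial sum from −0.039 to 0.059. The causes were not tested. With a library left out, the exact permutation test of the marker sums cannot pass the threshold.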
